A study of Mus musculus with 4 samples.

Results

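Chemokine ligands are small secreted proteins that guide leukocytes through receptors coupled to G proteins. The 10 ligand genes described here were taken by name from 41388 genes in the count tables, with earlier results of these data known. They are the CXC ligands Cxcl2, Cxcl9, Cxcl10 and Cxcl16, the CC ligands Ccl1, Ccl3, Ccl4, Ccl5 and Ccl20, and the C ligand Xcl1. RNA-seq measured their transcripts in Mnk3, a mouse line of innate lymphoid type. Untreated cells gave 2 libraries (control), and cells given IL-1b and IL-23 together, at 10 ng/ml each, for about 16 h gave the other 2 (stimulated). Libraries numbered 1 carry rep1 in their titles and those numbered 2 carry no number. Both groups are the same cell line, and the labels name no genetic change in either. Nothing in the labels says that the libraries of 1 group are separate cultures, so the p-values here rest on a spread between libraries that may be technical.

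Ligands of the CXC, CC and C classes are named for the spacing of cysteines near the start of the mature protein. Inflammatory ligands are switched on by cytokines and microbial products, often through NF-kB and interferon-activated factors, while homeostatic ligands are made steadily. Innate lymphoid cells of group 3 (ILC3) sit in gut and lymphoid tissue, where exchange of chemokine signals positions them beside myeloid, epithelial and other lymphoid cells.

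Library depth ranged from 23047723 to 29078765 summed gene counts. Levels are CPM, counts set relative to library size with TMM scaling, and group values are the mean ± SD of 2 libraries. A change is the log2 fold change, stimulated over control, with its SE, and adjusted p-values are those of edgeR's quasi-likelihood test, with a threshold of 0.05. The SE is the absolute change over the square root of its F statistic, an approximation. Markers of ILC3 were detected, with 10 of 10 tested and summed levels of 4993 to 5122 CPM before and 2174 to 2268 CPM after stimulation. Of 10 macrophage and dendritic cell markers, Lyz2 and Cd14 had 0 counts in every library, and the summed level was 5.09 to 6.80 CPM in controls and 6.69 to 12.4 CPM in stimulated libraries. One of them, Adgre1, which encodes F4/80, rose from 2 counts in the controls together to 44 and 187 in stimulated 1 and 2 (edgeR adjusted p = 0.0161). Without Adgre1 the summed level was 6.73 and 5.09 CPM in control 1 and 2 and 4.94 and 4.24 CPM in stimulated 1 and 2. The other 4 tested did not pass. Fcgr1 had -1.33 ± 1.15, Itgam -1.20 ± 0.77, Csf1r -0.21 ± 0.54 and Cd68 0.22 ± 0.29. Mrc1, which was too low to be tested, had 1 count in the controls together and 22 in the stimulated libraries together. The part of these markers in the ligand changes was not tested. Summed stromal and B cell markers stayed at or below 1.62 CPM in every library and epithelial markers at or below 1.39 CPM. Of the 5 T cell markers, Cd3d had 13.9 ± 5.80 CPM in controls and 12.8 ± 2.44 CPM in stimulated libraries, and Cd3e stayed below 1 CPM on average in both groups.

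Stimulation raised the transcripts of the interferon-inducible ligands Cxcl9 and Cxcl10 and of Ccl20, and lowered that of Xcl1. All 10 ligands had at least 1 count, and 7 passed the filter on low counts. Of these 7, 3 rose, 1 fell and 3 did not pass the test. Over all 13838 genes tested 17.5% were higher and 18.3% lower, and 35.8% passed in either direction. The median change was 2.55 for the 7 ligands and -0.02 for all genes tested. Cxcl9 and Ccl20 met the filter only through their stimulated libraries, so neither the count nor the median bears on the ligands as a class. For 6 of the 7 the stimulated libraries lay wholly above or below the controls, as they did for 70.7% of all genes tested. Cxcl2, Ccl3 and Ccl4 were too low to be tested.

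**Figure D1:**
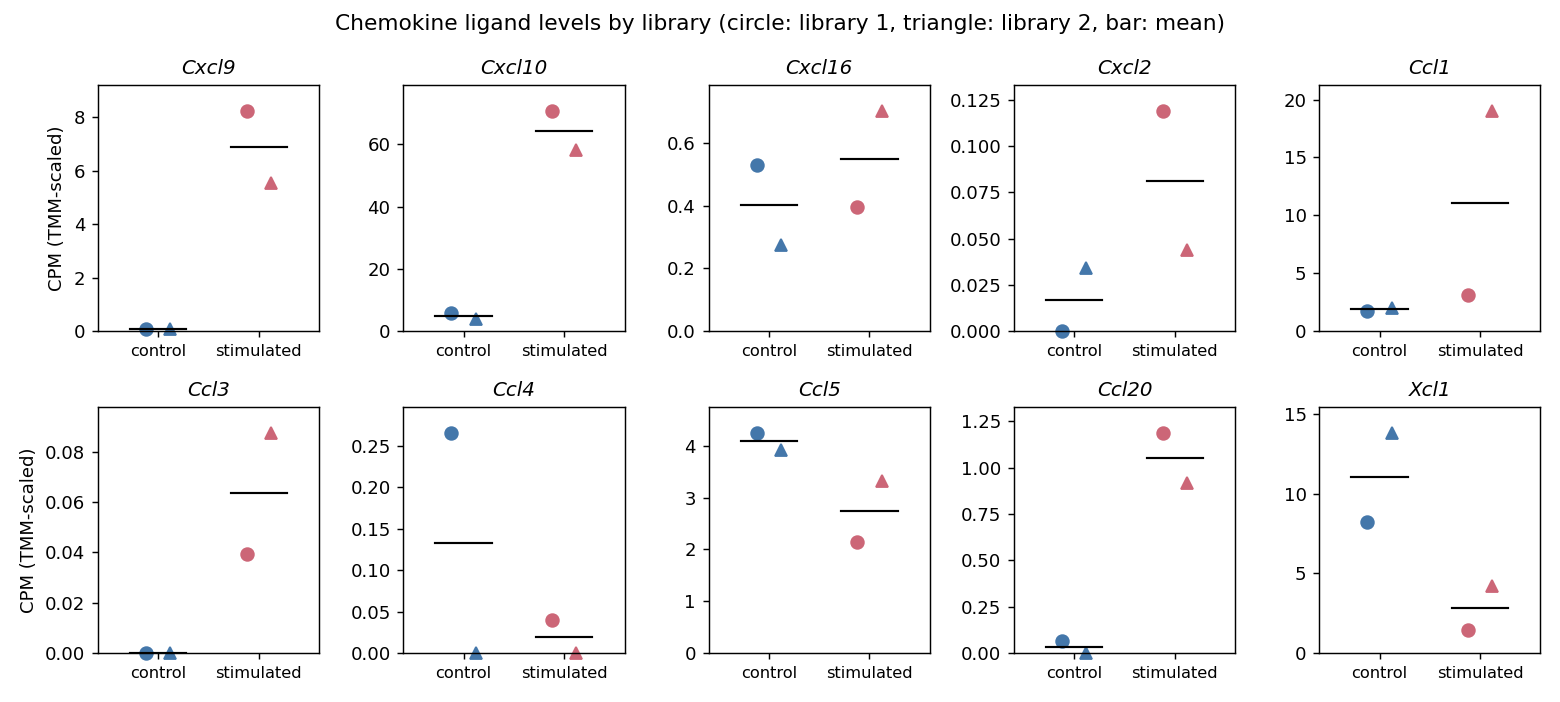
Level of each of the 10 ligands in CPM after TMM scaling (vertical axis, its own scale from 0 in each panel) in the control and stimulated groups. Circles are library 1, triangles library 2 and bars the mean of 2 libraries. Cxcl9, Cxcl10 and Ccl20 sit far above both controls in both stimulated libraries, and Xcl1 sits below them, while Ccl1 is high in stimulated 2 alone.

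Cxcl9 and Cxcl10 encode ligands of CXCR3, the receptor that draws T helper 1 cells, cytotoxic T cells and NK cells to sites of interferon gamma. Cxcl10 was the most abundant ligand after stimulation. Its counts were 175 and 118 in control 1 and 2 and 1784 and 1329 in stimulated 1 and 2, or 5.80, 4.03, 70.6 and 58.1 CPM. The groups did not overlap, and the stimulated libraries were 1.21-fold apart while the group means differed far more. The change was 3.71 ± 0.23, a 13.1-fold rise from 4.91 ± 1.25 to 64.4 ± 8.80 CPM (edgeR adjusted p = 0.000239). Of the 13838 genes tested, 131 had a larger rise.

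Cxcl9 was near silent in untreated cells. It had 2 and 2 counts in control 1 and 2 and 208 and 127 in stimulated 1 and 2, or 0.0663, 0.0683, 8.23 and 5.55 CPM. Both stimulated libraries were far above both controls. The change was 6.58 ± 0.45, from 0.0673 ± 0.00138 to 6.89 ± 1.89 CPM (edgeR adjusted p = 0.000271), and 38 genes had a larger rise. The ratio of summed counts was 103 with an exact 95% counting interval of 40.0 to 382, which covers counting error only. Although its relative change was the steeper, Cxcl9 stayed at 2.68 and 1.90 deposited RPKM (counts scaled to library size and to gene length) in stimulated 1 and 2, against 43.9 and 37.9 for Cxcl10.

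In the coordinates of the count tables the pair lies on chromosome 5, Cxcl9 from 92321331 to 92328079 and Cxcl10 from 92346638 to 92348889, both on the minus strand, 18.6 kb apart. The third CXCR3 ligand gene, Cxcl11, is next to them, and it had 0 and 0 counts in control 1 and 2 and 2 and 3 in stimulated 1 and 2. With the control group set to the floor of 3 counts, the ratio was 2.06. It takes the 5 stimulated counts as exact, so it is not a lower limit that covers counting error. Of the other genes within 100 kb of the pair, 4 were tested. Sdad1 changed by 0.86 ± 0.15 (edgeR adjusted p = 0.00543) and Nup54, a nuclear pore subunit, by 0.79 ± 0.14 (0.0055). Naaa, a lysosomal amidase, changed by -1.05 ± 0.16 (0.0038), and Scarb2 had -0.23 ± 0.20 and did not pass. The end of Cxcl10 shares 133 listed exon bases with Art3 on the opposite strand. Art3 had 2, 1, 7 and 9 counts in control 1, control 2, stimulated 1 and stimulated 2. The sources used here do not give the strand setting of the counting, which leaves reads from the shared bases uncertain.

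The stretches before the start sites of 4 ligands are shown because 3 of these genes rose and the other, Cxcl2, stayed near 0 counts. Each holds the 250 bases before the start in RefSeq on build GRCm38.p6, read 5′ to 3′ on the strand of the gene. Capitals mark matches on either strand to the NF-kB consensus, to TTCNNNGAA (STAT factors), to GAAA repeated after a gap of 2 bases (the interferon-stimulated element), to TGANTCA (AP-1) and to TATAAA (the TATA box). The windows are chr5:92328080-92328329 on the minus strand for Cxcl9, chr5:92348890-92349139 on the minus strand for Cxcl10, chr1:83116516-83116765 on the plus strand for Ccl20 and chr5:90903649-90903898 on the plus strand for Cxcl2.
Cxcl9: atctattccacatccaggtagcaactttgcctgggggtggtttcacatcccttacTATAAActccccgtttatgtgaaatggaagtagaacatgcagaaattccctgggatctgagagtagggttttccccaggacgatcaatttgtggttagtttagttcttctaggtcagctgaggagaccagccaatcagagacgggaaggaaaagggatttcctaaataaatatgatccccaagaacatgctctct
Cxcl10: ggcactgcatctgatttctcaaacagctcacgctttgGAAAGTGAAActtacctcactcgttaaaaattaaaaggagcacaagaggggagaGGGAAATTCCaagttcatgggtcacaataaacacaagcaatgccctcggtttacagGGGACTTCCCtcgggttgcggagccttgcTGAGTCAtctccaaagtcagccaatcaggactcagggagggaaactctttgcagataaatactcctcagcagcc
Ccl20: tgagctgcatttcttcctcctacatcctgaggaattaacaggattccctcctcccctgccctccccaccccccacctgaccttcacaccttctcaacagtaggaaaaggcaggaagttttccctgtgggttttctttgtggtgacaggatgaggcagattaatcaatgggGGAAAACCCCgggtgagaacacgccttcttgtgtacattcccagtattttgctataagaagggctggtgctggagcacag
Cxcl2: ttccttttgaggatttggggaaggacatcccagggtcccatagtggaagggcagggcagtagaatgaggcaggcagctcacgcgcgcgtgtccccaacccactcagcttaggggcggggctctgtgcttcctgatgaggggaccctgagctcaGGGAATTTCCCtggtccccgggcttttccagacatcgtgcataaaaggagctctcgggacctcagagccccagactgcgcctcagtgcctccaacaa

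The Cxcl10 window held the NF-kB consensus at 159 to 150 and at 103 to 94 bases before the start, the interferon-stimulated element at 213 to 204 and TGANTCA at 74 to 68. The Ccl20 window held the NF-kB consensus on the other strand at 80 to 71 bases before the start. The Cxcl2 window held it on both strands in overlapping letters, at 97 to 87. In Cxcl9 only the letters TATAAA matched, at 195 to 190 bases before the start. Whether these letters serve as its TATA box was not tested. Promoters of 7 of the 10 ligands were in the RefSeq table, and the windows of Ccl1, Ccl3 and Xcl1 held none of these letters. Over 32851 promoter windows of the same length, 3.9% held the NF-kB consensus, 7.02% TTCNNNGAA, 2.98% the interferon-stimulated element, 6.75% TGANTCA and 12.4% TATAAA. Of the 7 ligand windows, 3 held the NF-kB consensus and none held TTCNNNGAA. The match of letters is a description and shows no binding.

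Ccl20 encodes the ligand of CCR6, a receptor carried by ILC3, T helper 17 cells and B cells of gut lymphoid tissue. Its transcripts were absent or nearly so before stimulation and low after it. Counts were 2 and 0 in control 1 and 2 and 30 and 21 in stimulated 1 and 2, or 0.0663, 0, 1.19 and 0.919 CPM. The groups did not overlap. The ratio of summed counts was 31.5 with a counting interval of 8.28 to 267, and the fitted change was 4.79 ± 0.78 (edgeR adjusted p = 0.0043). With so few control counts the fitted size rested on single libraries: it was 7.77 without control 1 and 3.90 without control 2, and it passed in both. The gene is on the plus strand of chromosome 1, from 83116766 to 83119167.

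Xcl1 encodes lymphotactin, the ligand of XCR1, a receptor carried by dendritic cells that cross-present antigen. It was the most abundant ligand per length in untreated cells and fell after stimulation. Counts were 249 and 405 in control 1 and 2 and 37 and 96 in stimulated 1 and 2, or 8.26, 13.8, 1.46 and 4.20 CPM. Both stimulated libraries lay below both controls, with a gap of 1.67-fold between the controls and 2.87-fold between the stimulated libraries. The change was -1.97 ± 0.54, from 11.04 ± 3.94 to 2.83 ± 1.93 CPM (edgeR adjusted p = 0.0384). The call ended without control 1 (-2.29, edgeR adjusted p = 0.061) and without control 2 (-1.55, edgeR adjusted p = 0.143). The change was -1.39 without stimulated 1 and -2.88 without stimulated 2, and passed in both. Library by library, the log2 ratio was -2.50 between the libraries numbered 1 and -1.72 between those numbered 2. Xcl1 lies on chromosome 1 from 164931644 to 164935527 on the minus strand, and none of the genes listed within 100 kb was abundant enough to be tested.

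Ccl1, Ccl5 and Cxcl16 were detected and did not pass the test. Ccl1 encodes the ligand of CCR8, a receptor of type 2 and regulatory T cells. Its counts were 53 and 59 in control 1 and 2 and 80 and 434 in stimulated 1 and 2, or 1.76, 2.01, 3.16 and 19.0 CPM. The controls lay close together, while stimulated 2 was 5.998-fold above stimulated 1. The change was 2.55 ± 0.97 (edgeR adjusted p = 0.126). It was 3.33 without stimulated 1, where the call passed (edgeR adjusted p = 5.9e-05), and 0.77 without stimulated 2 (0.157), so its size rested on 1 library. Without robust estimation the edgeR adjusted p was 0.047.

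The gene model behind the Ccl1 count is wide. The tables list it on chromosome 11 from 82176657 to 82305690 on the minus strand, with 12 separate exon stretches, of which 3 lie in the gene as RefSeq places it and the farthest reaches 125.9 kb upstream of that gene. Those 3 hold 613 of its 2369 listed bases. The counts do not say which exons the reads came from, and the RPKM of Ccl1 divides by the whole listed length.

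Ccl5, or RANTES, is a ligand of CCR1 and CCR3 made by T cells and NK cells. It had 128 and 115 counts in control 1 and 2 and 54 and 76 in stimulated 1 and 2, or 4.24, 3.93, 2.14 and 3.32 CPM. Both stimulated libraries lay below both controls. The change of -0.58 ± 0.30 did not pass (edgeR adjusted p = 0.18), and it was -0.30 without stimulated 1 and -0.91 without stimulated 2. Ccl5 lies on chromosome 11 from 83525778 to 83530518 on the minus strand.

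Cxcl16, the ligand of CXCR6 and made both as a membrane-bound and as a shed protein, was scarce. Counts were 16 and 8 in control 1 and 2 and 10 and 16 in stimulated 1 and 2, or 0.530, 0.273, 0.396 and 0.700 CPM. The groups overlapped, and the change was 0.43 ± 0.55 (edgeR adjusted p = 0.58), with 0.98 without control 1, 0.04 without control 2, 0.79 without stimulated 1 and 0.00 without stimulated 2. Of its 3021 listed bases, 552 are shared with Zmynd15 on the opposite strand, which had 0 counts in 3 libraries and 1 in stimulated 2. Cxcl16 lies on chromosome 11 from 70453983 to 70459984 on the minus strand.

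Cxcl2, Ccl3 and Ccl4 were at the limit of detection. Cxcl2, a neutrophil attractant that acts through CXCR2, had 0 and 1 counts in control 1 and 2 and 3 and 1 in stimulated 1 and 2, which gives a ratio of 4.94 (95% counting interval 0.489 to 243). Ccl3 encodes MIP-1 alpha, a ligand of CCR1. It had 0 counts in both controls and 1 and 2 counts in stimulated 1 and 2, which is not above the floor of 3 counts. Ccl4, which encodes MIP-1 beta, an attractant of monocytes and T cells, had 8 and 0 counts in control 1 and 2 and 1 and 0 in stimulated 1 and 2. All but 1 of its counts came from control 1, and the ratio was 0.154 with an interval of 0.00348 to 1.152. A difference in these 3 ligands was not detectable at this depth. Cxcl2 is on the plus strand of chromosome 5, from 90903899 to 90905909. Ccl3 and Ccl4 lie on chromosome 11, from 83647844 to 83649355 on the minus strand and from 83662584 to 83664683 on the plus strand, and they are 13.2 kb apart. Of the 50-base stretches in Cxcl2 transcripts, 5.84% also occur in transcripts of another gene, and for the other 9 ligands the share was 0.47% or less.

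Per length, the leading ligand changed from Xcl1 to Cxcl10. Compared within each library by the authors' deposited RPKM, Xcl1 held 62.1% and 77.4% of the summed RPKM of the 10 ligands in control 1 and 2, and 4.93% and 13.2% in stimulated 1 and 2. Cxcl10 held 15.02% and 7.76% before and 81.7% and 63.0% after stimulation. The summed RPKM was 26.4 and 35.1 in control 1 and 2 and 53.7 and 60.2 in stimulated 1 and 2. In the controls the order by mean RPKM was Xcl1, Ccl5, Cxcl10 and Ccl1, and the libraries of Xcl1 (16.4 and 27.2 RPKM) were above those of Ccl5 (4.59 and 4.20), which were above those of Cxcl10 (3.96 and 2.72). After stimulation Cxcl10 was followed by Xcl1 (2.65 and 7.96), Ccl1 (1.26 and 7.95), Ccl5 (2.10 and 3.43) and Cxcl9 (2.68 and 1.90), and these 4 overlapped one another across the libraries. Ccl20 followed at 0.790 and 0.641, below all of these. The RPKM of Ccl1 divides by all 2369 listed bases, of which 613 lie in the gene as RefSeq places it. The rank of Ccl1 and the shares of the 10 ligands rest on that length.

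**Figure D2:**
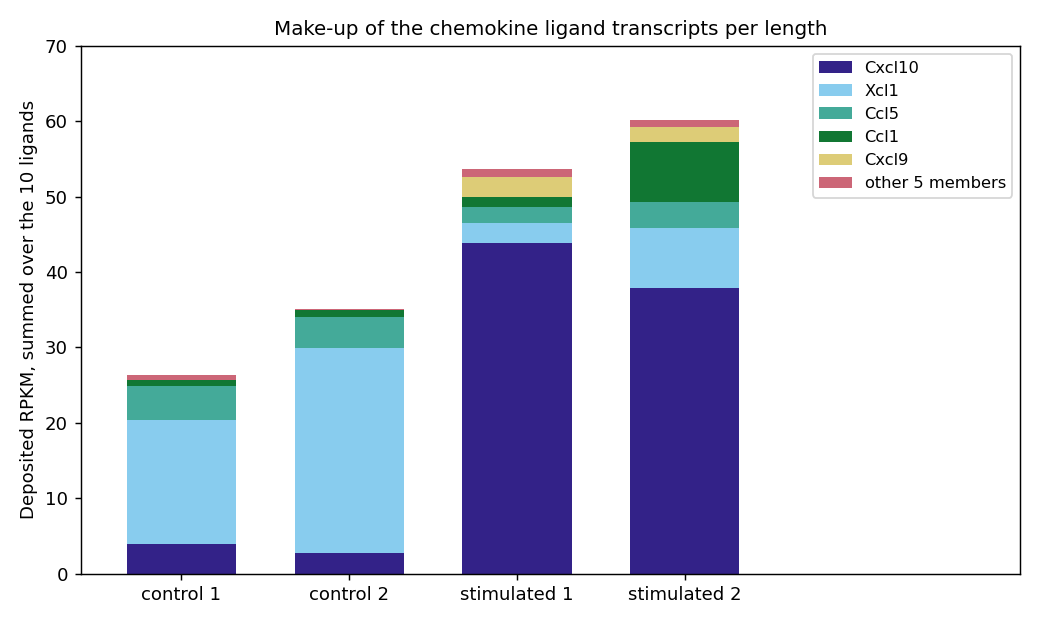
Deposited RPKM of the 10 ligands stacked for each of the 4 libraries (vertical axis, from 0), with Cxcl10, Xcl1, Ccl5, Ccl1 and Cxcl9 apart and the other 5 together. Xcl1 makes up 62.1% and 77.4% of the bars of the controls, and Cxcl10 81.7% and 63.0% of those of stimulated cells.

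Receptors for these ligands fell or did not pass, and none of those tested rose. Of the 10 receptor genes 6 were tested, with 3 lower, and their median change was -1.28. Over all genes, 18.3% were lower. Ccr3 met the filter on low counts only through its control libraries, and Ccr1 only with its stimulated libraries. Neither the count nor the median therefore bears on the receptors as a class. Cxcr3, the receptor of CXCL9 and CXCL10, had 1223 and 1086 counts in control 1 and 2 and 73 and 66 in stimulated 1 and 2. It fell from 38.8 ± 2.46 to 2.89 ± 0.000715 CPM, a change of -3.75 ± 0.18 (edgeR adjusted p = 0.000134), while both its ligands rose. The small SD after stimulation is that of 2 near-equal values and does not measure counting error. Xcr1, the receptor of XCL1, had 788 and 1582 counts in control 1 and 2 and 273 and 319 in stimulated 1 and 2, a change of -1.70 ± 0.38 (edgeR adjusted p = 0.0225). Its call ended without stimulated 1 (-1.52, edgeR adjusted p = 0.137) and without stimulated 2 (-1.86, edgeR adjusted p = 0.0865). Both Xcl1 and its receptor were thus lower on average after stimulation.

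Cxcr6, the receptor of CXCL16, was far more abundant than its ligand. It went from 997 ± 180 to 548 ± 52.9 CPM (-0.87 ± 0.18, edgeR adjusted p = 0.0118), and its deposited RPKM was 544 in controls and 281 in stimulated libraries on average, against 0.137 and 0.177 for Cxcl16. Ccr6, the receptor of CCL20, had 123 ± 6.21 and 107 ± 25.9 CPM (-0.20 ± 0.19, edgeR adjusted p = 0.434). Ccr1 had 1.58 ± 0.53 (0.0552) and Ccr3 -1.78 ± 0.74 (0.105), both below 1 CPM on average in each group. Ccr1 passed in 5 of 12 other fits, and Ccr3 in 3 of 12. Ccr8, the receptor of CCL1, had 5 counts in control 2 and 0 elsewhere, Cxcr1 had 3 counts in all and Cxcr2 had 0 in all libraries.

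**Figure D3:**
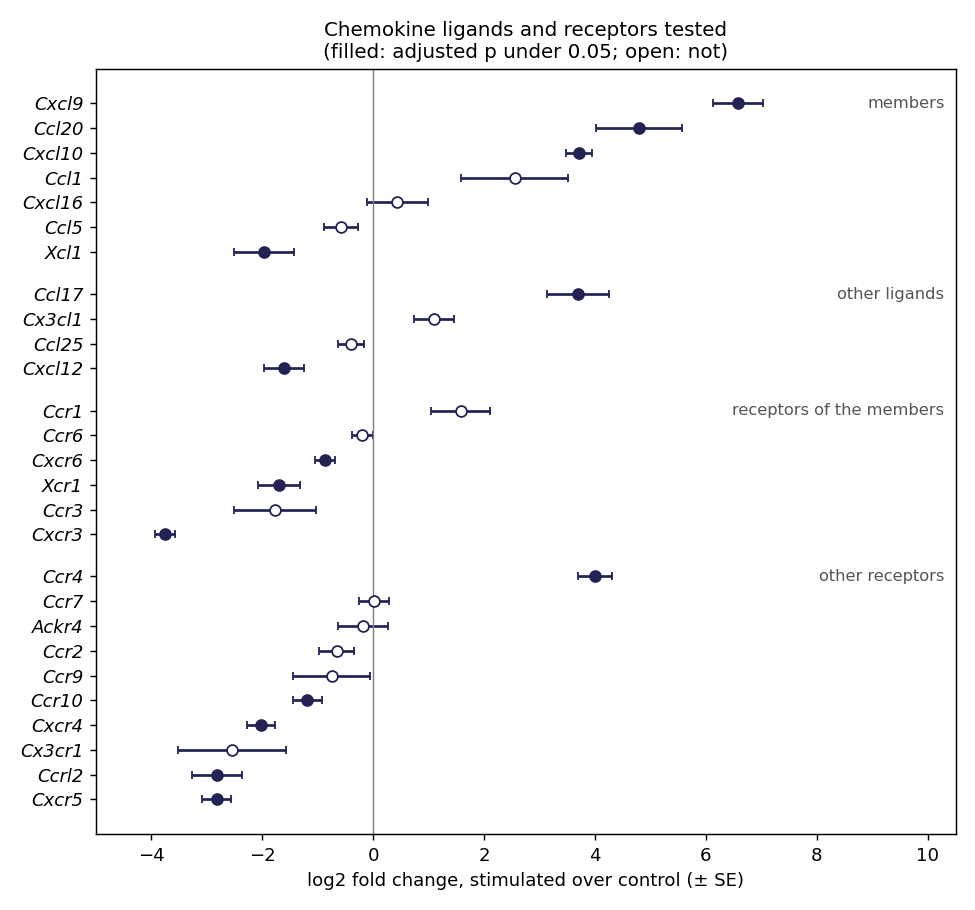
Log2 fold change of stimulated over control (horizontal axis, points with SE bars) for the tested ligands and receptors of the chemokine system. Filled points passed an adjusted p of 0.05. Cxcl9, Ccl20 and Cxcl10 lie at 6.58, 4.79 and 3.71, and their receptors Cxcr3 and Ccr6 at -3.75 and -0.20.

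Most other chemokine ligands were silent or too low to be tested. Of 30 further ligand genes, 15 had 0 counts in all 4 libraries and 4 passed the filter, of which 1 rose and 1 fell. Ccl17, a ligand of CCR4, had 33 and 32 counts in control 1 and 2 and 187 and 484 in stimulated 1 and 2. Its change was 3.70 ± 0.56 (edgeR adjusted p = 0.00593), and leaving out control 1 (0.124) or control 2 (0.114) ended the call. Ccl22, the other CCR4 ligand gene, had 2 and 0 counts in control 1 and 2 and 7 and 36 in stimulated 1 and 2, which gives a ratio of 26.6 (95% counting interval 6.92 to 226). In both genes, as in Ccl1, stimulated 2 was the higher library. Cxcl12, the homeostatic ligand of CXCR4, fell from 50 and 53 to 12 and 15 counts (-1.61 ± 0.36, edgeR adjusted p = 0.014), and the call ended without control 2 (0.0508) and without stimulated 1 (0.0701). Ccl25, the gut ligand of CCR9, had -0.40 ± 0.24 (edgeR adjusted p = 0.243). Cx3cl1, which encodes fractalkine, had 1.10 ± 0.36 (0.0525) and passed in 4 of 13 other fits.

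Of the 13 other receptor genes, 10 were tested, with 1 higher and 4 lower, where 17.5% of all genes were higher and 18.3% lower. Ccrl2, among those lower, met the filter on low counts only with its control libraries. It had 90 and 51 counts in control 1 and 2 and 7 and 9 in stimulated 1 and 2. The count therefore does not bear on these receptors as a class. Ccr4, the receptor of CCL17 and CCL22, rose from 1.89 ± 0.603 to 30.4 ± 7.12 CPM (16.03-fold, edgeR adjusted p = 0.000393), in the same direction as Ccl17. Cxcr5 and Cxcr4 fell, with changes of -2.82 ± 0.26 and -2.02 ± 0.25, and so did Ccrl2 and Ccr10, with -2.81 ± 0.45 and -1.19 ± 0.26. Ccr10 lost its call without stimulated 1 (0.0598). Ccr2 and Ccr7, the most abundant that did not pass, had -0.66 ± 0.31 and 0.02 ± 0.27.

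Genes that are known to act on chemokine promoters or transcripts rose in part. Of 17 tested, 9 were higher and none lower, with a median change of 0.93, where 17.5% of all genes were higher. Nfkbiz, which encodes an atypical NF-kB regulator, and Stat3, which carries the IL-23 signal, rose by 2.37 ± 0.19 and 1.76 ± 0.17. Among the NF-kB subunit genes, Rel rose by 1.15 ± 0.15 (edgeR adjusted p = 0.00174). Nfkb2 and Nfkb1, which were more abundant, had -0.43 ± 0.15 and -0.24 ± 0.14 and did not pass. Rela and Relb, with -0.21 ± 0.16 and 0.13 ± 0.13, did not pass either. Nfkb2 passed with total-count scaling (-0.52), upper quartile scaling (-0.48), DESeq2 (-0.41) and the replicate block (-0.43).

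Within 100 kb of the 10 ligands the tables list 61 other genes, of which 15 were tested, 3 higher, 2 lower and 10 not passing, with a median change of -0.10. Over all genes tested 35.8% passed in either direction, so the count is near the background. Beside Cxcl16, Psmb6, a proteasome subunit, rose by 1.08 ± 0.20 (edgeR adjusted p = 0.00664), and Med11, Pelp1, Arrb2 and Pld2 did not pass. Mthfd2l beside Cxcl2, Heatr6 beside Ccl4, and Taf15 and Mmp28 beside Ccl5 did not pass either. No gene within 100 kb of Ccl1, Ccl3, Ccl20 or Xcl1 was tested.

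**Figure D4:**
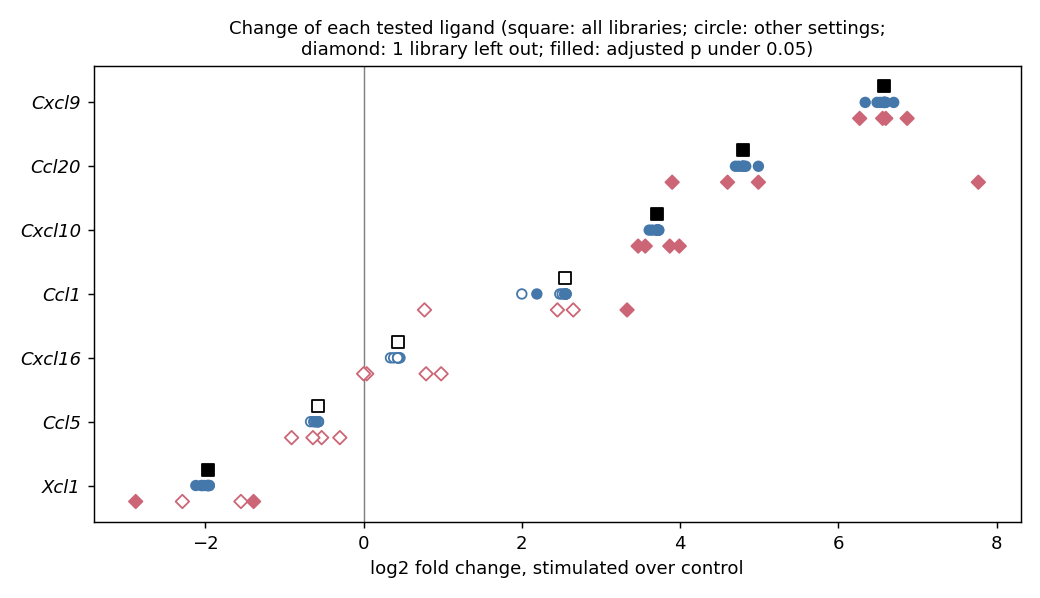
Log2 fold change of stimulated over control (horizontal axis) for the 7 tested ligands with all libraries (squares), under other scalings, filters and tests (circles) and with 1 library left out (diamonds). Filled symbols passed an adjusted p of 0.05. Cxcl9 and Cxcl10 stay filled and close together, Ccl20 ranges from 3.90 to 7.77 with 1 library left out, and Ccl1 ranges from 0.77 to 3.33.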

How the data were processed

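Each of the 4 deposited tables gives a raw count per gene, per the file headers. The deposited CPM is the count over the library's summed count, and the deposited RPKM is that CPM per kilobase of listed length, both checked on the values. The submitters' processing notes name STAR, Subread and featureCounts, without versions or roles. Not given in the sources used here are the genome build, the annotation release and the strand setting. Identifiers were matched to GENCODE M21, and 40340 of 41388 matched. RPKM served to compare genes within a library, and all else used the counts.

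Counts were fitted with edgeR 4.0.16 in R 4.3.3 (filterByExpr, TMM, robust quasi-likelihood test, treatment as the only term), with Benjamini-Hochberg adjustment over 13838 genes. The common biological coefficient of variation was 18.4%. The procedure was tested on simulated data. Ratios of summed counts carry exact 95% binomial counting intervals, and PCR duplicates are not separated from molecules.

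The ligands and the gene lists were chosen with earlier results of these data known. Genes named are all 10 ligands, every tested gene of the other ligands and of the ligands' receptors, of each other list the 3 called genes of smallest adjusted p with the 2 most abundant genes not called, and tested neighbours with an established symbol. A few further genes, such as called receptors, were named after their values were seen. Some genes of the lists are included in the counts but are not reported here by name. Alternatives were 3 other scalings, 2 other filters, DESeq2 1.42.0, limma-voom (limma 3.58.1), estimation without robustness, a replicate block (title with or without rep1) and fits that leave out 1 library each.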

Additional observations from a re-analysis of the deposited data

How the results depend on the processing

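Cxcl9 and Cxcl10 rose and passed in all 13 alternatives, with changes of 6.27 to 6.87 and 3.47 to 3.99. Ccl20 rose and passed in the 12 that tested it (3.90 to 7.77 with 1 library left out), and the filter of 1 CPM in 2 libraries did not keep it or Cxcl16. Xcl1 kept its direction with -2.88 to -1.39 when 1 library was left out, and lost its call without control 1 (-2.29) and without control 2 (-1.55). The number of ligands lower was 0 to 1 with 1 library left out and 2 with the block. Ccl1 ranged from 0.77 to 3.33 with 1 library left out and passed without stimulated 1 (3.33) and without robust estimation (2.55). Over all genes, leaving out 1 library gave 1593 to 2001 higher and 1665 to 2035 lower.

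Titles give only 1 shared number (rep1), so they state no pairing. Across genes, the differences between library 1 and library 2 in the controls and in the stimulated group correlated at 0.49, where genes are not independent replicates. With the replicate block for the kind of title, 3986 genes were higher and 4000 lower, Ccl1 had 2.19 (edgeR adjusted p = 0.022) and Ccl5 had -0.60 (0.0422), both passing, and no other ligand changed its call. That fit leaves 1 residual degree of freedom per gene. The cause of these changes was not tested. For Cxcl2, Ccl3 and Ccl4, at most 8 counts per library limit what can be seen.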

Other observations

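Genes that carry or end the signal of chemokine receptors were lower in 8 of 21 cases. Of the 21 tested, 1 rose, 8 fell and 12 did not pass, with a median change of -0.57, where 18.3% of all genes were lower. Gng2, a G protein gamma subunit, fell by 1.33 ± 0.16 on the log2 scale (edgeR adjusted p = 0.0016), Pik3cg, the lipid kinase activated by such subunits, by 1.26 ± 0.16 and Dock2, the Rac activator needed for lymphocyte migration, by 0.97 ± 0.15. The gene that rose was Pik3r5, a regulatory subunit of that kinase, from 13 and 9 counts in control 1 and 2 to 90 and 25 in stimulated 1 and 2 (2.65 ± 0.64, edgeR adjusted p = 0.0201), and its call ended without control 1 (0.0661), control 2 (0.09) or stimulated 1 (0.0856, change 1.55). Pik3r5 met the filter on low counts only with its stimulated libraries. Rac2 and Gnai2, the most abundant that did not pass, had 0.27 ± 0.20 and -0.35 ± 0.16.

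Of 9 genes for the shedding, trimming and surface retention of chemokines, 1 rose, 3 fell and 5 did not pass, where 35.8% of all genes passed in either direction. Sdc1, a heparan sulfate proteoglycan that can hold chemokines at the cell surface, fell from 473 ± 126 to 36.0 ± 12.4 CPM (-3.72 ± 0.32, edgeR adjusted p = 0.000917). Sdc4, of the same family, had 900 ± 196 and 883 ± 163 CPM (-0.03 ± 0.22). Mmp9, a protease that can cut chemokines, fell by 2.77 ± 0.28 on the log2 scale. Adam17, one of the sheddases of CXCL16, fell by 0.76 ± 0.14. Ext1, an enzyme of heparan sulfate synthesis, rose by 0.69 ± 0.22 (edgeR adjusted p = 0.0458) and lost the call in 6 of 13 alternatives, among them total-count scaling (0.0844) and each of control 1 (0.151), stimulated 1 (0.094) and stimulated 2 (0.0896) left out. Srgn, the granule proteoglycan that binds chemokines, had -0.04 ± 0.13.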
